A study of Homo sapiens with 56 samples.

Results

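The libraries compared here ask where PMR-116 and CX-5461, 2 inhibitors of RNA polymerase I, changed gene expression to a different extent in Mv4;11 cells after 12 h. Mv4;11 is an established human acute myeloid leukaemia line of monocytic character that carries a KMT2A fusion and an internal tandem duplication of FLT3. By their labels, 12 of the 56 libraries of the series belong to this comparison, 3 in each of 4 groups: PMR-116 at 1 µM, the PMR-116 vehicle, CX-5461 at 1 µM, and the CX-5461 vehicle. Both vehicles were the same buffer, 50 mM citric acid with 50 mM sodium phosphate, and all 12 libraries carry the same batch label. The kit captures RNA with a poly(A) tail and keeps its strand, which leaves the ribosomal RNA precursor, the direct product of RNA polymerase I, unmeasured. The quantity reported for each gene is a difference of effects: the log2 fold change of PMR-116 over its own vehicle, minus the log2 fold change of CX-5461 over its own vehicle. A negative difference therefore means that PMR-116 moved the gene further down, or less far up, than CX-5461 did. Nothing in the labels says that replicates came from separate cultures, so p-values measure only the spread between these libraries, which may be technical. Each compound was given at 1 dose, and at 1 dose a stronger action of PMR-116 and a different kind of response cannot be told apart.

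RNA polymerase I transcribes the precursor of the large ribosomal RNAs in the nucleolus, with the promoter factors UBTF and SL1 and the initiation factor RRN3. When ribosome assembly stalls, free ribosomal proteins bind MDM2, the ligase that degrades p53, and p53 then raises its target genes, MDM2 itself among them. Cells with active p53 stop before S phase, through CDKN1A and the retinoblastoma proteins that hold back E2F, the factor family behind most DNA replication genes. CX-5461 is also known to trap topoisomerase II and to bind G-quadruplex DNA, and the genes of MYC drive ribosome production and nucleotide supply in leukaemia cells.

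The 12 libraries held 28751758 to 41542156 estimated counts, and 27765 to 31395 genes per library had a count. Within each group the libraries correlated at r = 0.991 or more. Markers of the line were present, with 95.04 to 125 counts per 1000000 (CPM, at library sizes scaled by the trimmed mean of M-values) of the myeloid antigen CD33, 206 to 256 of the myeloid factor SPI1, 314 to 461 of FLT3 and 85.4 to 108 of MEIS1, whereas the monocyte antigen CD14 was nearly absent (0 to 0.609 CPM). HBB of red cells was at 0 in every library, and CD3E of T cells and EPCAM of epithelium did not pass 0.0831 and 0.108 CPM. Of the 18 markers of fibroblasts, endothelium and epithelium, 14 or 15 averaged under 1 CPM in each group, and their summed level of 113 to 127 CPM with PMR-116 and 61.9 to 73.7 CPM in its vehicle, against 99.1 to 114 CPM with CX-5461 and 65.2 to 80.1 CPM in its vehicle, was mostly PECAM1, which monocytic cells express too. Of that list 7 of 18 members were tested, of the erythroid and megakaryocyte list 6 of 19 and of the lymphocyte list 12 of 18. None of those tested was called in the difference of effects, where 5.11% of all tested genes were called. PMR-116 vehicle replicate 3 stood apart, with 438 CPM of RN7SL2, the RNA of the signal recognition particle, against 9.18 to 15.8 CPM in the remaining 5 vehicle libraries, and with 1126 CPM of the nuclear RNA MALAT1 against 59.4 to 73.6. Results that rest on that library are given with and without it. The 2 vehicle groups did not differ in any gene by edgeR's quasi-likelihood test at an adjusted p of 0.05 (0%; 858 of 20495 genes had an unadjusted p under 0.05, and DESeq2 also called 0), although leaving out PMR-116 vehicle replicates 1 or 2 gave 17 and 13 called genes, and testing without the filter on low counts gave 174.

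PMR-116 moved more genes than CX-5461, and where their effects differed, PMR-116 mostly went further in the direction that CX-5461 also took. In edgeR's quasi-likelihood test with Benjamini-Hochberg adjustment over 20495 genes, which is the source of every adjusted p below, the difference of effects was called (adjusted p under 0.05) for 1047 genes, or 5.11% of those tested. Of these, 260 were higher with PMR-116 (1.27%) and 787 were lower (3.84%), and 147 differed by 2-fold or more, 59 higher (0.288%) and 88 lower (0.429%). Scaling to plain library totals instead gave 571 higher, and lower genes then made up 49.1% of the calls, against 75.2% with the scaling used throughout. Library totals put the median effect over all genes at 0.18 for PMR-116 and at 0.12 for CX-5461. With the scaling used throughout these medians were 0.0093 (a shift of over 0.1) and 0.036. Each compound against its own vehicle called 8859 genes for PMR-116 (43.2%; 4241 higher and 4618 lower) and 6430 for CX-5461 (31.4%; 3042 higher and 3388 lower). The median difference over all genes was -0.031.

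Among the 787 genes with a lower difference, 536 fell with both compounds and 191 fell with PMR-116 without a called change with CX-5461. In 33 of them CX-5461 raised the gene and PMR-116 had no called effect, in 16 CX-5461 raised it and PMR-116 lowered it, and in 10 both raised it. Among the 260 genes with a higher difference, 124 rose with both compounds, 107 rose with PMR-116 only by that threshold, 18 fell with CX-5461 only by that threshold, 5 rose with PMR-116 and fell with CX-5461, and 6 fell with both. The size of the change was larger with PMR-116 for 969 of the 1047 genes (92.6%), against 64.7% of all tested genes. For 7821 of the 20495 genes (38.2%) the per-library effects of PMR-116 did not overlap those of CX-5461. Such separation was required of the 12 genes per direction picked by the naming rule, so for them it is no result. For other genes it is to be read beside that share. Statements below that groups did not overlap in CPM use a different measure, whose share over all genes is not given here. Across the 20495 genes the effects of the 2 compounds correlated with Pearson's r of 0.57 and Spearman's rho of 0.66, as a description, since all genes share the same 12 libraries. Leaving out any 1 library gave 724 to 1084 calls. The higher genes depended more on single libraries: their number was 146 without CX-5461 vehicle replicate 3, 163 and 167 without PMR-116 replicates 3 and 2, and 171 and 172 without CX-5461 replicates 1 and 3. Without PMR-116 vehicle replicate 3 there were 1084, of which 881 were also among the 1047, all with the same sign (84.1% of the first set and 81.3% of the second).

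**Figure D1:**
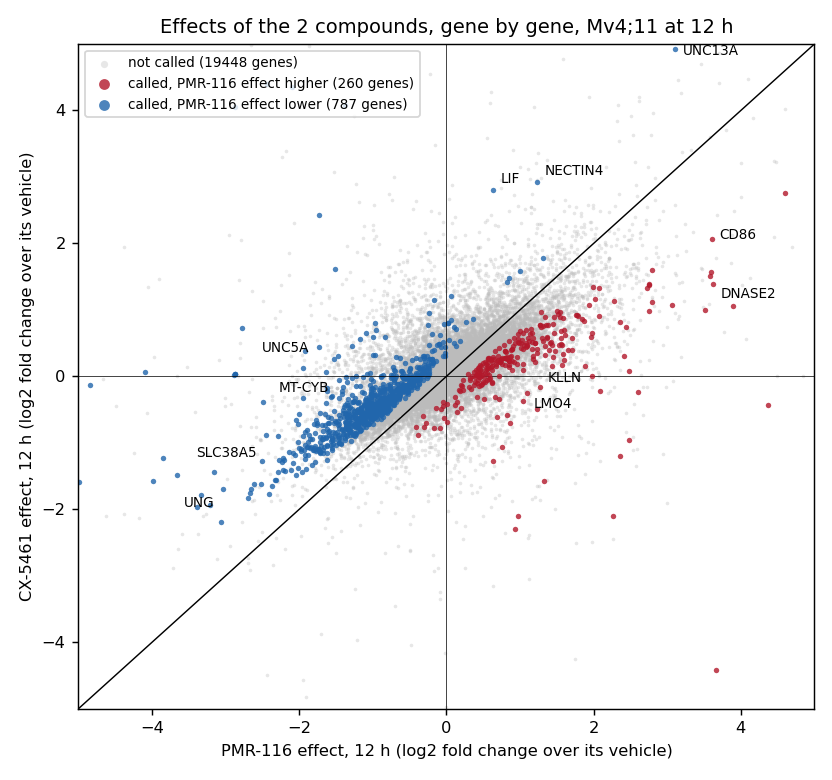
Each point is 1 of the tested genes, with the PMR-116 effect at 12 h on the x axis and the CX-5461 effect on the y axis (both log2 fold change over vehicle); red points were called higher with PMR-116 (260 genes), blue points lower (787 genes), and the diagonal marks equal effects. The axes stop at 5 in either direction, which leaves 47 genes outside, 3 of them called; most blue points lie in the lower left, where both compounds lowered the gene, and to the left of the diagonal.

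Genes of DNA replication and the G1/S transition fell with both compounds and fell further with PMR-116. Of the 61 genes on this list, 60 fell with PMR-116 and 60 with CX-5461, and the difference was called lower for 30 and higher for 0 (with unadjusted p under 0.05, 46 and 0; by DESeq2, 40 and 0). The list's median log2 fold change was -1.34 with PMR-116 and -0.95 with CX-5461, and its median difference was -0.42, beside -0.031 over all genes. Counts on this list (49.2% called) and on the later ones are to be read beside the shares over all genes, 3.84% lower and 1.27% higher. The lists were chosen with earlier results of these data known, so a share above these is a description and no independent evidence. Some genes stand on more than 1 list. In bulk RNA, fewer cells in S phase and less of these RNAs per cell cannot be told apart. MCM6, a subunit of the replicative helicase, had 75.3, 65.7 and 61.5 CPM with PMR-116 and 409, 399 and 349 CPM in its vehicle, against 135, 117 and 127 CPM with CX-5461 and 389.5, 404 and 374 CPM in its vehicle. All 3 PMR-116 libraries lay below all 3 CX-5461 libraries, and both lay below all 6 vehicle libraries. The MCM6 difference was -0.89 ± 0.11, adjusted p = 5.93e-05 (SE, from 3 libraries per group as in all differences below).

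A second helicase subunit, MCM2, held 112, 105 and 111 CPM with PMR-116 and 481, 493 and 448 CPM in its vehicle, against 182, 177 and 175 CPM with CX-5461 and 461, 489.5 and 472 CPM in its vehicle (difference -0.70 ± 0.067, adjusted p = 1.46e-06). The 4 groups were ordered as for MCM6, with no overlap between the 2 compounds. UHRF1, which carries DNA methylation through replication, fell by 2.09 on the log2 scale with PMR-116 and by 1.30 with CX-5461 (difference -0.79 ± 0.091, adjusted p = 2.05e-05), and POLD2, a subunit of DNA polymerase delta, fell by 1.30 and by 0.70 (difference -0.60 ± 0.072, adjusted p = 3.65e-05). The 30 called members spanned differences from -1.01 to -0.33. Leaving out any 1 library kept between 26 and 33 of the list called lower.

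The promoters of these genes carry E2F sites more often than others do. With RefSeq promoters (GRCh38.p14; 250 bases before to 50 after the start) matched to 12209 of the 20495 tested genes by symbol, the E2F motifs TTTCCCGC or TTTGGCGC, searched on both strands, stood in 41.2% of 51 promoters of DNA replication genes and in 3.58% of all 12209. Among promoters of all genes with a lower difference the share was 5.93%. The MCM6 promoter is shown because that gene had the largest called difference among the 4 named replication genes; it lies on the minus strand at chr2:135876444-135876693, and the capitals mark 2 E2F matches, 152 and 90 bases before the start.
MCM6: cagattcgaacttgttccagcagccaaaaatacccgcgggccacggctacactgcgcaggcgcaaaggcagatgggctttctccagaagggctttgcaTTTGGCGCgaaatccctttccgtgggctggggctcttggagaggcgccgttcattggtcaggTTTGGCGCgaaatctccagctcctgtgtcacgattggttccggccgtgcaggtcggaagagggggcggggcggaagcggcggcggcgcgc
A match in these letters is a description of the window and no evidence of binding.

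Genes of DNA repair followed the same pattern. Of 53 on the list, 43 fell with each compound, and the difference was lower for 21 and higher for 1, with a median of -0.25; the count of 21 was 13 without PMR-116 replicate 3 or PMR-116 vehicle replicate 1. UNG, which cuts uracil out of DNA, had the largest of these differences: 13.4, 11.7 and 13.1 CPM with PMR-116 and 107, 107 and 99.0 CPM in its vehicle, against 34.8, 31.5 and 33.9 CPM with CX-5461 and 109.7, 111 and 104 CPM in its vehicle. PMR-116 left UNG below every CX-5461 library, and both compounds left it below every vehicle library (difference -1.34 ± 0.12, adjusted p = 9.65e-07). TIMELESS, of the replication fork, RBBP8, of DNA end resection, and XRCC2, of homologous recombination, had differences of -0.50, -0.73 and -0.66. The 1 repair gene with a higher difference was MRE11, the nuclease of the MRN complex, singled out after its values were seen: it rose with both compounds, by 0.98 with PMR-116 and 0.50 with CX-5461 (difference 0.48 ± 0.093, adjusted p = 0.00287).

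MYC and the genes of ribosome production fell further with PMR-116 as well. MYC itself had 251, 211 and 218 CPM with PMR-116 and 499, 544 and 473 CPM in its vehicle, against 356, 360.3 and 317 CPM with CX-5461 and 515, 522 and 484 CPM in its vehicle. Its level with PMR-116 was below that with CX-5461 in every library, and the difference was -0.60 ± 0.13, adjusted p = 0.0063. On the list of the MYC network and MYC targets, 20 of 42 tested genes (43 listed) had a lower difference and 0 a higher one (2 with unadjusted p under 0.05), with medians of -0.86 with PMR-116 and -0.55 with CX-5461. SRM, which makes the polyamine spermidine, held 51.5, 41.6 and 52.5 CPM with PMR-116 and 156, 152 and 138 CPM in its vehicle, against 96.6, 89.1 and 80.4 CPM with CX-5461 and 143, 152 and 136 CPM in its vehicle. Its libraries did not overlap between compounds (difference -0.92 ± 0.12, adjusted p = 0.000123). TFRC, the transferrin receptor, differed by -0.83 ± 0.11, adjusted p = 0.000113.

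Of 119 ribosome biogenesis factors, 113 fell with PMR-116 and 99 with CX-5461. The difference was lower for 43 and higher for 0 (80 and 0 with unadjusted p under 0.05; 58 and 0 by DESeq2), the median was -0.30, and the effect was larger in size with PMR-116 for 113 of them. NOLC1, a nucleolar chaperone of small nucleolar ribonucleoproteins, had 186, 157 and 169 CPM with PMR-116 and 376, 370.4 and 319 CPM in its vehicle, against 285, 256 and 267 CPM with CX-5461 and 362, 361 and 327 CPM in its vehicle (difference -0.68 ± 0.12, adjusted p = 0.00103). Again no PMR-116 library reached the CX-5461 libraries, which in turn stayed below all vehicles. PDCD11, of the small subunit processome, differed by -0.62, TCOF1, which supports ribosomal RNA transcription, by -0.53, and PPAN, of large subunit assembly, by -0.51. Leaving out any 1 library gave 29 to 48 lower genes on this list, and scaling to library totals gave 29.

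The target enzyme's own genes moved less evenly. Of the 21 RNA polymerase I machinery genes, 17 fell with each compound and 5 had a lower difference, namely POLR1A, POLR1E, POLR1G, POLR1D and POLR2H, the last a subunit shared by all 3 nuclear polymerases. POLR1A, the largest subunit, had 87.4, 81.7 and 82.9 CPM with PMR-116 and 182, 154 and 175 CPM in its vehicle, against 139, 123 and 132 CPM with CX-5461 and 183, 151 and 157 CPM in its vehicle. The PMR-116 libraries were the lowest, without overlap, and the difference was -0.70 ± 0.11, adjusted p = 0.00064. For POLR1E it was -0.57 ± 0.092, adjusted p = 0.000626. The second largest subunit POLR1B had an uncalled difference of -0.48 ± 0.16, adjusted p = 0.0823, and those of UBTF and RRN3 were -0.18 ± 0.073, adjusted p = 0.187, and -0.094 ± 0.10, adjusted p = 0.691 (95% intervals -0.32 to -0.034 and -0.28 to 0.10). The count of 5 rested on single libraries, being 3 without PMR-116 replicate 2 or CX-5461 replicate 3 and 2 without PMR-116 replicate 3, PMR-116 vehicle replicates 1 or 2, CX-5461 replicate 1 or CX-5461 vehicle replicates 1, 2 or 3; POLR1A and POLR1E stayed called in all of these. None of the 79 cytosolic ribosomal protein genes was called in either direction (0 and 0 with unadjusted p under 0.05, and 0 by DESeq2), with differences from -0.14 to 0.12.

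The sequence CACGTG, the E-box that MYC and MAX bind, stood in 39% of 100 promoters of ribosome biogenesis factors and in 37.8% of 37 promoters of the MYC list, against 9.65% of all 12209. Among promoters of genes with a lower difference it stood in 16.6%, and among those with a higher difference in 10.9%. The SRM promoter is given for the E-box, in capitals, 199 bases before the start; it lies on the minus strand at chr1:11060019-11060268.
SRM: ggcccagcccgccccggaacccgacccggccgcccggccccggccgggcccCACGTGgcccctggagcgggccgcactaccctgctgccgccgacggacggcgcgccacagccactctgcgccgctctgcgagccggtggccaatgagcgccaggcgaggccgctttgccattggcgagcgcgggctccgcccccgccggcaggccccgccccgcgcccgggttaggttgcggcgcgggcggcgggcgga

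**Figure D2:**
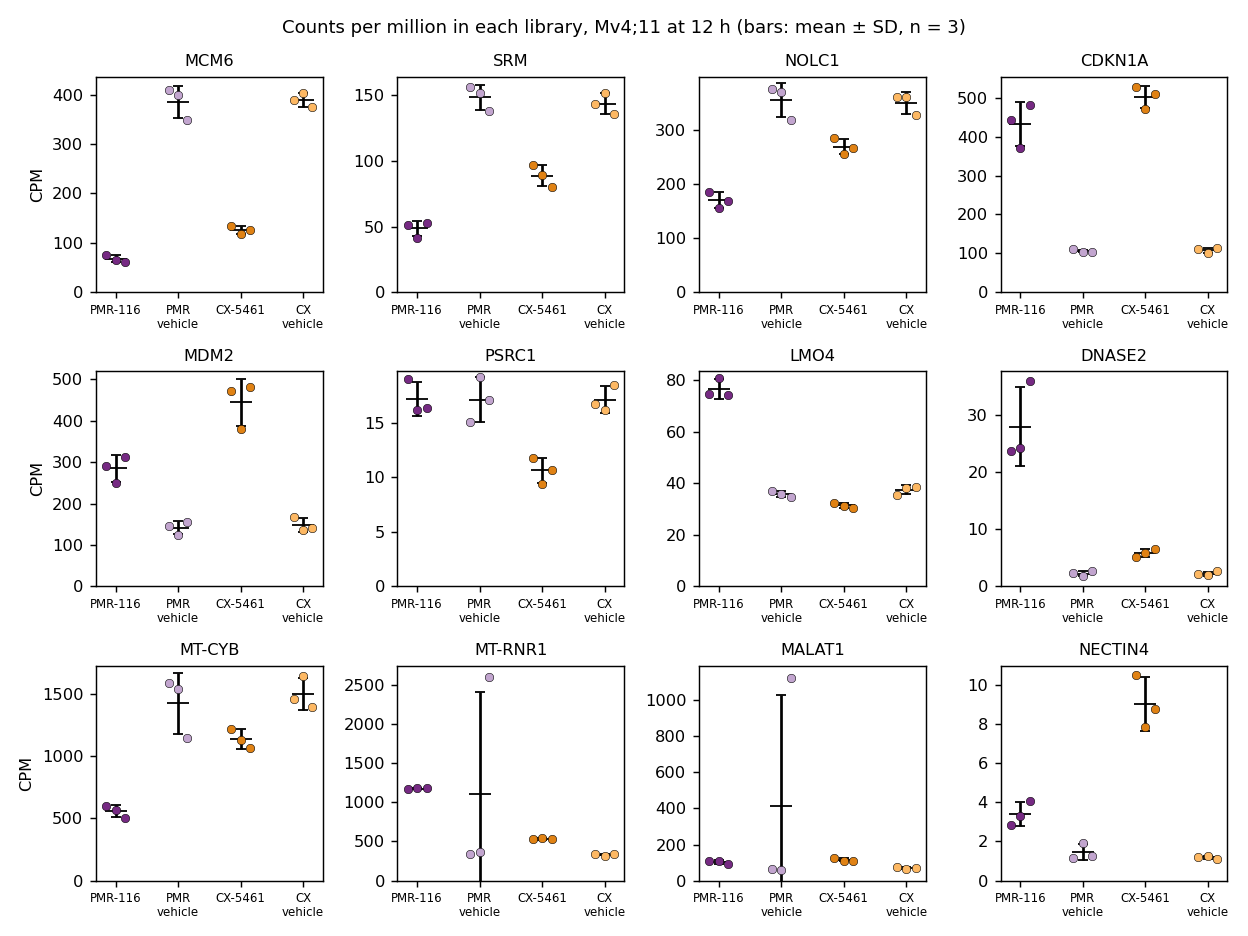
CPM in each library for 12 genes, with the groups in the order PMR-116, PMR-116 vehicle, CX-5461 and CX-5461 vehicle; points are libraries and bars are the mean ± SD (n = 3). MCM6, SRM and NOLC1 were lowest with PMR-116, whereas the high points of MT-RNR1 and MALAT1 in the PMR-116 vehicle are replicate 3.

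Metabolic genes that supply growing cells showed the same ordering. Of 22 genes of purine and pyrimidine synthesis, 20 fell with each compound and 11 had a lower difference, none a higher one (0 also at unadjusted p under 0.05, and 0 by DESeq2). PAICS, of purine synthesis, had 142, 125 and 127 CPM with PMR-116 and 519, 481 and 419 CPM in its vehicle, against 248, 223 and 225 CPM with CX-5461 and 485, 476 and 485 CPM in its vehicle (difference -0.79 ± 0.10, adjusted p = 4.26e-05). The groups again did not overlap. CAD, which starts pyrimidine synthesis, differed by -0.74, CTPS1, which makes CTP, by -0.84, and NME1, a nucleoside diphosphate kinase, by -0.72. PAICS and CAD also stand on the MYC list, so the counts of these lists are not independent. Among 19 enzymes of serine and folate metabolism 7 were lower (36.8%, against 3.84% of all genes), with the folate enzyme MTHFD1 at -0.70 and the folate carrier SLC19A1 at -0.86.

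Amino acid genes under ATF4 had 8 of 38 members lower (21.1%, against 3.84% of all genes). The glutamine transporter SLC38A5 led them, with 6.17, 4.65 and 4.87 CPM with PMR-116 and 49.5, 50.1 and 41.2 CPM in its vehicle, against 16.2, 17.04 and 16.5 CPM with CX-5461 and 46.8, 46.1 and 41.8 CPM in its vehicle. That is a fall with both compounds, and a further one with PMR-116 (difference -1.72 ± 0.16, adjusted p = 1.14e-06). The cationic amino acid transporter SLC7A1 (-0.74), the proline enzyme PYCR1 (-0.90) and the isoleucyl-tRNA synthetase IARS1 (-0.62) were lower too.

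Chaperone genes, in the endoplasmic reticulum and in the cytosol, also differed in 1 direction. The unfolded protein response list had 10 of 29 members lower and 0 higher (0 at unadjusted p under 0.05, and 0 by DESeq2). The calcium-binding chaperone CALR led it, with 544, 449.9 and 514 CPM with PMR-116 and 1362, 1264 and 1112 CPM in its vehicle, against 1004, 817 and 874 CPM with CX-5461 and 1291, 1333 and 1103 CPM in its vehicle (difference -0.84 ± 0.13, adjusted p = 0.000407). Every PMR-116 library was below every CX-5461 library. Of 30 heat shock and cytosolic chaperone genes 10 were lower, a count that was 5 without PMR-116 vehicle replicate 1; HSPA8, the constitutive HSP70, differed by -0.89 ± 0.14, adjusted p = 0.000506, and the HSP90 partner FKBP4 by -0.88. Of 25 glycolysis genes 6 were lower (24%, against 3.84% of all genes), led by the lactate dehydrogenase LDHA (-0.70) and the enolase ENO1 (-0.48). This count was 3 without PMR-116 vehicle replicate 1 or CX-5461 vehicle replicates 1 or 2 and 2 without PMR-116 vehicle replicate 2.

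The lipid list had 6 lower differences and 1 higher one, that of a gene for cholesterol export. Of 38 genes of cholesterol and unsaturated fatty acid synthesis, 28 fell with PMR-116 and 27 with CX-5461, and 6 had a lower difference, among them FASN, the fatty acid synthase (-0.87 ± 0.14, adjusted p = 0.00064), the desaturase FADS1 (-0.76) and DHCR7, the last enzyme of cholesterol synthesis (-1.55 ± 0.38, adjusted p = 0.0176). The DHCR7 call was lost without PMR-116 replicate 2 (adjusted p = 0.0625 there, and 2.04e-13 to 0.0625 over the alternatives). ABCA1, which exports cholesterol, was the 1 member with a higher difference: it had 39.9, 46.99 and 34.8 CPM with PMR-116 and 7.42, 9.41 and 8.28 CPM in its vehicle, against 17.8, 24.6 and 15.2 CPM with CX-5461 and 9.09, 8.27 and 8.78 CPM in its vehicle. Both compounds raised it, and PMR-116 more (difference 1.14 ± 0.26, adjusted p = 0.0102). The count of 6 was 3 without PMR-116 replicate 2 or PMR-116 vehicle replicate 2.

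**Figure D3:**
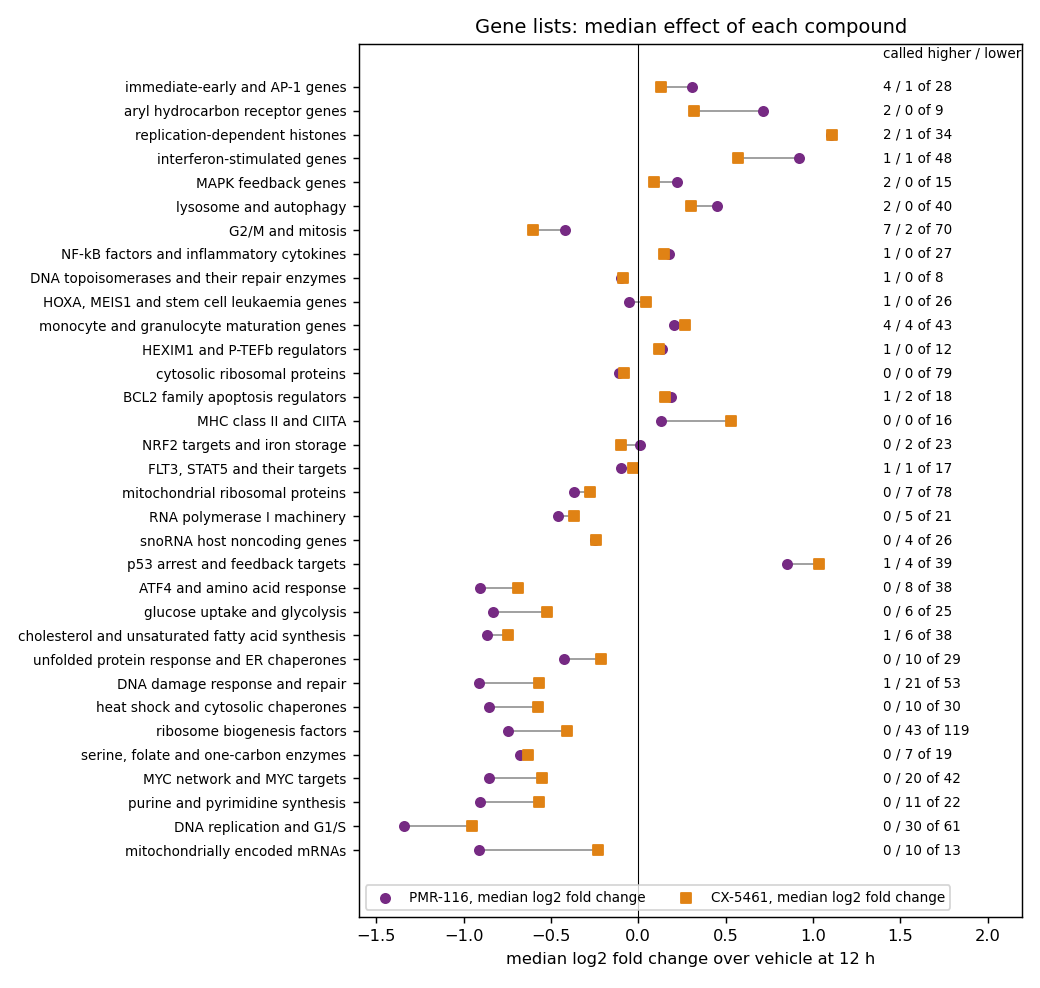
Median log2 fold change over vehicle for each gene list at 12 h, with circles for PMR-116 and squares for CX-5461, joined by a line; the figures at the right give how many members were called higher and lower in the difference, of those tested. For DNA replication, ribosome biogenesis, MYC targets and mitochondrial mRNAs the circle lies to the left of the square, and for G2/M genes to the right.

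The mRNAs encoded by the mitochondrial genome had the most negative median difference among the lists of protein-coding genes. The mitochondrial DNA is copied into long transcripts that start beside the ribosomal RNA genes and are then cut into shorter RNAs. Of the 13 protein-coding genes, 12 are read from the heavy-strand transcript and MT-ND6 from the other. Of the 13 mRNAs 12 fell with PMR-116 and 4 with CX-5461, and 10 had a lower difference, with medians of -0.91 with PMR-116 and -0.23 with CX-5461; without PMR-116 vehicle replicate 3, 12 were lower. MT-CYB, of respiratory complex III, had 602, 568 and 507 CPM with PMR-116 and 1593, 1544 and 1147 CPM in its vehicle, against 1222, 1129 and 1063 CPM with CX-5461 and 1459, 1649.6 and 1396 CPM in its vehicle. The PMR-116 libraries lay below all others, and the CX-5461 libraries below every vehicle library but PMR-116 vehicle replicate 3, which lay within their range. Its difference was -0.95 ± 0.14, adjusted p = 0.000289.

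The effect graded along the transcript. Taken in their order along the mitochondrial DNA, MT-ND1, the mRNA nearest to the ribosomal RNA genes, rose with both compounds, by 0.43 with PMR-116 and 0.41 with CX-5461, and did not differ between them by the test (difference 0.023 ± 0.11, adjusted p = 0.953). MT-ND2 and MT-CO1 came next, with uncalled differences of -0.38 and -0.35. The middle genes MT-CO2, MT-ATP8, MT-ATP6 and MT-CO3 differed by -0.59, -0.67, -0.70 and -0.77. MT-ND3, MT-ND4L, MT-ND4 and MT-ND5 differed by -0.66, -0.89, -0.88 and -0.79, and MT-CYB, at the far end, had the largest difference of the 13. Over the 12 heavy-strand mRNAs, Spearman's rho between position and effect was -0.90 for PMR-116, -0.89 for CX-5461 and -0.92 for the difference (-0.94 without PMR-116 vehicle replicate 3). These are descriptions, since the 12 RNAs share a transcript and all libraries. MT-ND6, from the other strand, differed by -0.75 ± 0.15, adjusted p = 0.00445. It lies between MT-ND5 and MT-CYB, and whether counting used strand is not known here. Its own RNA and heavy-strand RNA from the same stretch therefore cannot be told apart. The order was looked at after the values were seen.

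The 2 mitochondrial ribosomal RNAs, at the start of the transcript, did not fall. MT-RNR2 had 9322, 8955 and 8531 CPM with PMR-116 and 3884, 4460.4 and 5655 CPM in its vehicle, against 7178, 6864 and 7007 CPM with CX-5461 and 3915, 3919 and 4114 CPM in its vehicle, and rose with both compounds with an uncalled difference of 0.12 ± 0.15, adjusted p = 0.765. MT-RNR1 had 1166, 1183 and 1181 CPM with PMR-116 and 336, 365 and 2607 CPM in its vehicle, against 527, 539.7 and 528 CPM with CX-5461 and 337, 320.0 and 336 CPM in its vehicle. Its direction turned with 1 vehicle library: the difference was -0.59 ± 0.60, adjusted p = 0.684, with all libraries, and 1.06 (adjusted p = 0.000103) without PMR-116 vehicle replicate 3. These RNAs carry short poly(A) tails at most, so their level in libraries of polyadenylated RNA is uncertain. Of 78 nuclear genes for mitochondrial ribosomal proteins, 7 were lower (8.97%, against 3.84% of all genes), with MRPL3 at -0.49 and MRPL12 at -0.57. That count was 11 without PMR-116 vehicle replicate 3 and 13 by DESeq2. It was 4 without PMR-116 replicate 2, PMR-116 vehicle replicate 2, CX-5461 replicate 1 or CX-5461 vehicle replicates 1 or 3.

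**Figure D4:**
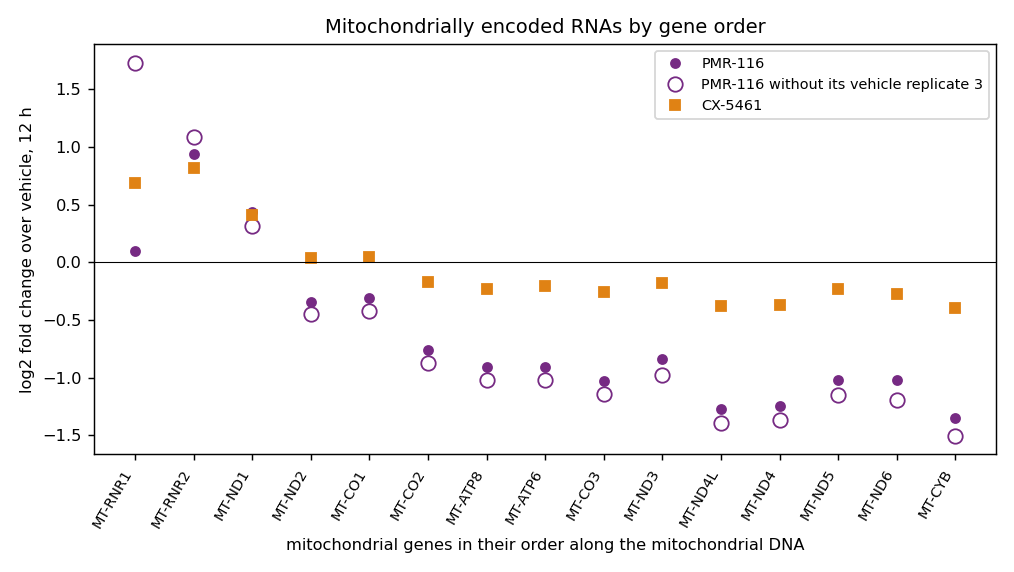
Log2 fold change over vehicle at 12 h for the mitochondrial ribosomal RNAs and mRNAs, placed in their order along the mitochondrial DNA; filled circles are PMR-116, open circles PMR-116 without its vehicle replicate 3, and squares CX-5461. Both compounds step down from MT-ND1 to MT-CYB, PMR-116 to -1.35 and CX-5461 to -0.40, and the open circle of MT-RNR1 stands far above the filled one.

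The p53 genes did not share the larger action of PMR-116. Of 39 tested p53 targets (40 listed), 31 rose with PMR-116 and 35 with CX-5461, with medians of 0.85 and 1.04, and the change was larger in size with PMR-116 for 13 of them. The difference was lower for 4, LIF, FDXR, BAX and MDM2, and higher for 1, the death receptor TNFRSF10B. CDKN1A, the inhibitor of cyclin-dependent kinases, had 444, 369.9 and 482 CPM with PMR-116 and 110.0, 103 and 105 CPM in its vehicle, against 527, 471 and 511 CPM with CX-5461 and 109.9, 100.03 and 113 CPM in its vehicle. Treated libraries lay above all vehicles and the 2 compounds overlapped; the difference was -0.20 ± 0.13, adjusted p = 0.451 (95% interval -0.45 to 0.050). MDM2 had 292, 250.1 and 314 CPM with PMR-116 and 146, 124 and 156 CPM in its vehicle, against 473, 380.0 and 481 CPM with CX-5461 and 167, 137 and 141 CPM in its vehicle. PMR-116 raised it, but to a level below every CX-5461 library (difference -0.58 ± 0.16, adjusted p = 0.0363). This call was lost without any of 8 libraries, PMR-116 replicates 1 or 2, PMR-116 vehicle replicates 1 or 3, CX-5461 replicates 1 or 3 or CX-5461 vehicle replicates 2 or 3 (adjusted p up to 0.114, and 7.71e-06 to 0.114 over the alternatives).

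FDXR, a mitochondrial reductase under p53, had 98.3, 78.8 and 98.5 CPM with PMR-116 and 50.7, 52.0 and 50.2 CPM in its vehicle, against 154, 145 and 139.9 CPM with CX-5461 and 48.4, 54.2 and 55.0 CPM in its vehicle (difference -0.63 ± 0.12, adjusted p = 0.00287). The 3 PMR-116 libraries again fell between the vehicles and the CX-5461 libraries. LIF, a secreted cytokine, had 1.81, 3.02 and 1.90 CPM with PMR-116 and 1.43, 1.58 and 1.31 CPM in its vehicle, against 5.00, 6.57 and 4.72 CPM with CX-5461 and 1.08, 0.731 and 0.538 CPM in its vehicle. At these low levels the difference was -2.17 ± 0.37, adjusted p = 0.0012, the most negative among the protein-coding genes ranked by the naming rule. BAX, a pore-forming killer protein, differed by -0.34 ± 0.091, adjusted p = 0.027, a call that was lost without any of 7 libraries, PMR-116 replicate 2, PMR-116 vehicle replicates 1 or 2, CX-5461 replicates 1 or 3 or CX-5461 vehicle replicates 1 or 2 (adjusted p up to 0.104, and 0.000385 to 0.104 over the alternatives). TNFRSF10B differed by 0.31 ± 0.083, adjusted p = 0.0268, a call that was lost without PMR-116 replicate 3, PMR-116 vehicle replicate 3, CX-5461 replicates 1 or 2 or CX-5461 vehicle replicate 1 (adjusted p 0.0532 to 0.0849 there, and 0.00129 to 0.0849 over the alternatives). The 4 lower p53 targets became 2 without PMR-116 replicate 2, PMR-116 vehicle replicate 1, CX-5461 replicates 1 or 3 or CX-5461 vehicle replicate 2.

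In the BCL2 family 2 of 18 tested genes were lower, BAX and BID, and 1 was higher, the survival gene MCL1 (0.29). The lower count was 1 without PMR-116 replicate 3 and 0 without PMR-116 replicate 2, PMR-116 vehicle replicates 1 or 2, CX-5461 replicates 1 or 3 or CX-5461 vehicle replicates 1 or 2. The MCL1 call was lost without any of 7 libraries, PMR-116 replicates 1 or 3, PMR-116 vehicle replicates 1 or 3, CX-5461 replicate 3 or CX-5461 vehicle replicates 1 or 2 (adjusted p up to 0.0909, and 0.00293 to 0.0909 over the alternatives).

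Genes of G2/M and mitosis went the other way from the replication genes. Of 70 on the list, 57 fell with PMR-116 and 68 with CX-5461, with medians of -0.42 and -0.60, so that here CX-5461 had the larger effect; the change was larger in size with PMR-116 for 21. The difference was higher for 7 and lower for 2, with a median of 0.12. PSRC1, a spindle protein, had 18.97, 16.2 and 16.3 CPM with PMR-116 and 15.1, 19.2 and 17.05 CPM in its vehicle, against 11.8, 9.40 and 10.7 CPM with CX-5461 and 16.7, 16.2 and 18.5 CPM in its vehicle. CX-5461 lowered it, while PMR-116 left it within the range of the vehicles (difference 0.69 ± 0.17, adjusted p = 0.0138). The chromosome motor KIF4A fell by 0.15 on the log2 scale with PMR-116 and by 0.47 with CX-5461 (difference 0.33 ± 0.082, adjusted p = 0.0184). KIF11, the spindle motor that separates the poles, CENPE, a kinetochore motor, and PTTG1, securin, differed by 0.28, 0.61 and 0.42; these 3 were singled out after their values were seen.

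The other members with a higher difference were DLGAP5 and ESPL1. The count of 7 was 4 without PMR-116 vehicle replicate 3, 3 without PMR-116 vehicle replicates 1 or 2, CX-5461 replicate 2 or CX-5461 vehicle replicate 2, 2 without PMR-116 replicate 2 or CX-5461 replicate 3, 1 without PMR-116 replicate 1 and 0 without CX-5461 vehicle replicate 3, so no single one of these calls held in every left-out library. The PSRC1 call was lost without PMR-116 vehicle replicate 1 or CX-5461 vehicle replicate 3 (adjusted p 0.0503 to 0.0519 there, and 0.000261 to 0.0519 over the alternatives). That of KIF4A was lost without PMR-116 replicate 1, CX-5461 replicate 3 or CX-5461 vehicle replicate 3 (adjusted p 0.0571 to 0.0739 there, and 0.000141 to 0.0739 over the alternatives). The 2 lower members, MYBL2 (-0.52 ± 0.10, adjusted p = 0.00347), a factor that joins the replication and mitosis programmes, and CENPM of the centromere (-0.59 ± 0.13, adjusted p = 0.00939), stayed called in all of them.

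The CHR element TTTGAA, through which the DREAM complex holds mitotic genes down, stood in 62.7% of 59 G2/M promoters, against 10.4% of all 12209, in 11.5% of promoters of genes with a higher difference and in 6.27% of those with a lower one. The KIF4A promoter shows such an element, in capitals, 34 bases before the start; it lies on the plus strand at chrX:70289854-70290103.
KIF4A: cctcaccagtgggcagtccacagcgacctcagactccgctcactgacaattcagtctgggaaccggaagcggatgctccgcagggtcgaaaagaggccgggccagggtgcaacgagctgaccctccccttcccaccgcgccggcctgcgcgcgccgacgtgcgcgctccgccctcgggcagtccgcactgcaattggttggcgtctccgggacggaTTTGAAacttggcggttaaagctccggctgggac

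Among genes that PMR-116 raised further, DNASE2 led by the naming rule. DNASE2, the acid DNase of lysosomes, had 23.7, 24.2 and 35.8 CPM with PMR-116 and 2.30, 1.72 and 2.71 CPM in its vehicle, against 5.11, 5.82 and 6.61 CPM with CX-5461 and 2.10, 1.93 and 2.62 CPM in its vehicle. Both compounds raised it, PMR-116 by 3.63 and CX-5461 by 1.39 on the log2 scale, and the difference was 2.24 ± 0.29, adjusted p = 7.55e-05. JAML, an adhesion protein of myeloid cells, differed by 1.55 ± 0.32, adjusted p = 0.0046, and ENHO, which encodes a secreted peptide, by 1.38 ± 0.28, adjusted p = 0.00419. KLLN, a small p53-regulated gene, had 62.3, 73.5 and 68.8 CPM with PMR-116 and 27.4, 29.99 and 27.1 CPM in its vehicle, against 25.7, 26.4 and 25.9 CPM with CX-5461 and 29.2, 27.8 and 30.2 CPM in its vehicle. PMR-116 alone raised it by the test, and the difference was 1.44 ± 0.13, adjusted p = 1.14e-06.

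The co-stimulatory protein CD86 (1.54 ± 0.42, adjusted p = 0.0312), the lysophospholipase ENPP2 (1.37 ± 0.37, adjusted p = 0.0308) and PATL2, of messenger RNA regulation (1.37 ± 0.36, adjusted p = 0.0253), were also among the 12 largest positive differences by the naming rule. Their calls were less firm. That of CD86 was lost without any of 8 libraries, PMR-116 replicates 1 or 3, PMR-116 vehicle replicates 1 or 2, CX-5461 replicates 1 or 2 or CX-5461 vehicle replicates 1 or 3 (adjusted p up to 0.12, and 0.000163 to 0.12 over the alternatives). That of ENPP2 was lost without any of 9 libraries, PMR-116 replicates 2 or 3, PMR-116 vehicle replicates 1 or 2, CX-5461 replicates 1, 2 or 3 or CX-5461 vehicle replicates 1 or 3 (adjusted p up to 0.0803, and 1.45e-24 to 0.0803 over the alternatives). That of PATL2 was lost without any of 7 libraries, PMR-116 replicate 2, PMR-116 vehicle replicates 1 or 2, CX-5461 replicates 1 or 3 or CX-5461 vehicle replicates 1 or 3 (adjusted p up to 0.0838, and 0.000602 to 0.0838 over the alternatives). Of 34 tested replication-dependent histone genes (59 listed), 2 were higher, H2AC6 (1.84 ± 0.44, adjusted p = 0.0134) and H2AC11 (1.39 ± 0.40, adjusted p = 0.0448), and 1, H1-4, was lower. Most of their transcripts lack a poly(A) tail and their genes are close copies of each other, which makes values of single members uncertain, and without PMR-116 vehicle replicate 3 the higher count was 9 and the median 1.01, beside 0.21 with all libraries. With any other library left out the higher count was 0 or 1. The H2AC6 call was lost without PMR-116 vehicle replicate 1 or CX-5461 vehicle replicate 3 (adjusted p 0.051 to 0.0773 there, and 1.16e-14 to 0.0773 over the alternatives). That of H2AC11 was lost without any of 11 libraries, PMR-116 replicates 1, 2 or 3, PMR-116 vehicle replicates 1 or 2, CX-5461 replicates 1, 2 or 3 or CX-5461 vehicle replicates 1, 2 or 3 (adjusted p up to 0.13, and 2.4e-05 to 0.13 over the alternatives). H1-4 (-4.71 ± 1.39, adjusted p = 0.0497) rested on the library that stands apart: without PMR-116 vehicle replicate 3 its difference was -1.40 (adjusted p = 0.468). Its call was lost without any of 10 libraries, PMR-116 replicates 1, 2 or 3, PMR-116 vehicle replicate 3, CX-5461 replicates 1, 2 or 3 or CX-5461 vehicle replicates 1, 2 or 3 (adjusted p up to 0.468, and 2.97e-09 to 0.601 over the alternatives).

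Myeloid genes moved in both directions. Of 43 tested monocyte and granulocyte genes (48 listed), 4 were higher, the Fc receptor FCGR2A (0.55 ± 0.12, adjusted p = 0.00737), the myeloid factor CEBPA (0.39 ± 0.091, adjusted p = 0.0119), the scavenger receptor CD36 (0.97) and CD86. The 4 lower members were the granule proteases CTSG, PRTN3 and ELANE and the factor IRF8. CTSG had 34.9, 29.9 and 32.3 CPM with PMR-116 and 92.7, 81.0 and 92.2 CPM in its vehicle, against 65.3, 67.2 and 74.6 CPM with CX-5461 and 81.5, 80.9 and 97.0 CPM in its vehicle. PMR-116 lowered it below every other library (difference -1.13 ± 0.24, adjusted p = 0.00612). PRTN3 and ELANE, singled out after their values were seen, differed by -0.79 and -0.60, and IRF8 by -0.37. The CD36 call was lost without PMR-116 replicate 3, PMR-116 vehicle replicate 3, CX-5461 replicate 2 or CX-5461 vehicle replicates 1 or 3 (adjusted p 0.0566 to 0.0644 there, and 1.42e-14 to 0.0644 over the alternatives). That of PRTN3 was lost without CX-5461 replicate 1 (adjusted p = 0.0551 there, and 1.22e-12 to 0.0551 over the alternatives). That of ELANE was lost without any of 7 libraries, PMR-116 replicate 2, PMR-116 vehicle replicates 1 or 2, CX-5461 replicates 1 or 2 or CX-5461 vehicle replicates 1 or 3 (adjusted p up to 0.0886, and 8.71e-06 to 0.0886 over the alternatives). The higher count was 2 without PMR-116 replicate 3, CX-5461 replicate 2 or CX-5461 vehicle replicates 1 or 3, and the lower count 2 without CX-5461 replicate 1. HOXA9, the homeobox factor of this leukaemia, was higher with PMR-116 at 113, 103 and 112 CPM and 62.3, 60.8 and 58.5 CPM in its vehicle, against 76.4, 70.4 and 68.8 CPM with CX-5461 and 62.1, 66.6 and 62.9 CPM in its vehicle (difference 0.68 ± 0.13, adjusted p = 0.00324). HOXA9 was the 1 called member of 26 tested HOXA, MEIS1 and stem cell leukaemia genes (31 listed). That share of 3.85% did not exceed the 5.11% called over all genes. STAT5A, which acts downstream of FLT3, was lower (-0.62 ± 0.10, adjusted p = 0.00064). On the list of 17 genes of FLT3, STAT5 and their targets, 1 was lower and 1 higher (11.8% called).

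Signalling genes gave smaller counts, to be read beside 1.27% higher and 3.84% lower over all genes. For NF-kB and cytokine genes the called share of 3.7% did not exceed the 5.11% called over all genes. Of 28 tested immediate-early and AP-1 genes (31 listed), 4 were higher, BTG1 (0.46), KLF10 (0.44), GADD45B (0.61) and FOSL2 (0.40), and 1, FOSL1, was lower; the higher count was 2 without PMR-116 replicate 1, PMR-116 vehicle replicate 3, CX-5461 replicates 1 or 2 or CX-5461 vehicle replicates 1, 2 or 3. The GADD45B call was lost without any of 7 libraries, PMR-116 replicate 1, PMR-116 vehicle replicate 3, CX-5461 replicates 1, 2 or 3 or CX-5461 vehicle replicates 2 or 3 (adjusted p up to 0.0868, and 0.000656 to 0.0868 over the alternatives). That of FOSL2 was lost without any of 9 libraries, PMR-116 replicates 1, 2 or 3, PMR-116 vehicle replicates 1 or 3, CX-5461 replicates 1 or 2 or CX-5461 vehicle replicates 1 or 2 (adjusted p up to 0.127, and 0.000235 to 0.127 over the alternatives). The MAPK phosphatase DUSP6 (0.63 ± 0.15, adjusted p = 0.0114) and PHLDA1 (0.86) were higher among 15 tested MAPK feedback genes (19 listed), and 1 of them was called without PMR-116 replicate 3 or CX-5461 vehicle replicate 1. Of 9 aryl hydrocarbon receptor genes 2 were higher, CYP1A1, which oxidises foreign aromatic compounds, and AHRR, the receptor's repressor (0.38 ± 0.10, adjusted p = 0.0314). The count was 1 without PMR-116 vehicle replicate 3, CX-5461 replicate 2 or CX-5461 vehicle replicate 3 and 0 without PMR-116 replicate 2, PMR-116 vehicle replicate 1, CX-5461 replicate 1 or CX-5461 vehicle replicate 2. The AHRR call was lost without PMR-116 replicate 2, PMR-116 vehicle replicate 1, CX-5461 replicates 1 or 2 or CX-5461 vehicle replicates 2 or 3 (adjusted p 0.0636 to 0.126 there, and 0.000811 to 0.126 over the alternatives). CYP1A1 had 9.25, 16.8 and 12.4 CPM with PMR-116 and 1.34, 2.51 and 1.70 CPM in its vehicle, against 2.57, 5.75 and 5.13 CPM with CX-5461 and 1.66, 2.89 and 1.69 CPM in its vehicle. Replicates spread widely here; the difference was 1.69 ± 0.44, adjusted p = 0.0254, and the call was lost without PMR-116 replicate 2, PMR-116 vehicle replicates 1 or 3, CX-5461 replicate 1 or CX-5461 vehicle replicate 2 (adjusted p 0.052 to 0.0937 there, and 1.48e-06 to 0.0937 over the alternatives). The chemokine CCL3 was the 1 higher member of 27 tested NF-kB and cytokine genes (33 listed), at 4.23, 2.38 and 2.61 CPM with PMR-116 and 0.224, 0.395 and 0.487 CPM in its vehicle, against 1.08, 0.943 and 0.971 CPM with CX-5461 and 0.462, 0.465 and 0.489 CPM in its vehicle (difference 1.99 ± 0.45, adjusted p = 0.00872). HEXIM1, which holds the elongation kinase P-TEFb inactive, differed by 0.49 ± 0.11, adjusted p = 0.00836. It was the 1 called member of 12 HEXIM1 and P-TEFb genes (8.33%).

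In 5 genes the compounds moved expression in opposite directions with PMR-116 up and CX-5461 down: LMO4, ARRDC3, STK17B, ITPRIP and SP1, singled out after their values were seen except ARRDC3. LMO4, a LIM-domain cofactor of transcription, had 74.5, 80.8 and 74.1 CPM with PMR-116 and 37.0, 35.8 and 34.8 CPM in its vehicle, against 32.4, 31.2 and 30.6 CPM with CX-5461 and 35.4, 38.3 and 38.6 CPM in its vehicle. The PMR-116 libraries were the highest and the CX-5461 libraries the lowest, with the 6 vehicles between, and the difference was 1.35 ± 0.14, adjusted p = 2.77e-06. ARRDC3, an arrestin-related adaptor, had 11.0, 13.8 and 9.24 CPM with PMR-116 and 5.74, 8.01 and 5.60 CPM in its vehicle, against 5.49, 7.23 and 5.91 CPM with CX-5461 and 9.37, 11.2 and 7.34 CPM in its vehicle (difference 1.40 ± 0.30, adjusted p = 0.00568). Its vehicle libraries of the 2 arms differed in mean, 6.45 ± 1.35 and 9.31 ± 1.94 CPM (SD, n = 3 each), so part of the difference comes from the vehicles. The kinase STK17B differed by 0.73 ± 0.16, adjusted p = 0.00737, and the general factor SP1 by 0.37 ± 0.082, adjusted p = 0.00801. The rise with PMR-116 was not called without PMR-116 vehicle replicate 3 for SP1 (0.14, adjusted p = 0.0912) or ITPRIP (0.16, adjusted p = 0.145), so the opposite directions of these 2 rested on that library. The differences themselves stayed called there. The ITPRIP call was lost without PMR-116 replicates 2 or 3, PMR-116 vehicle replicate 1, CX-5461 replicate 3 or CX-5461 vehicle replicate 3 (adjusted p 0.0503 to 0.0906 there, and 0.000377 to 0.0906 over the alternatives).

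The reverse pattern, PMR-116 down and CX-5461 up, held for 16 genes. ACSM3, a mitochondrial acyl-CoA synthetase, had 16.9, 17.2 and 18.9 CPM with PMR-116 and 29.2, 27.9 and 28.04 CPM in its vehicle, against 31.4, 31.2 and 34.96 CPM with CX-5461 and 27.8, 26.7 and 25.03 CPM in its vehicle. Here the order was turned round, with the vehicles in the middle (difference -0.98 ± 0.12, adjusted p = 3.98e-05). FOSL1 of the AP-1 family belonged to this set too, with a difference of -0.57 ± 0.12, adjusted p = 0.00457. In 33 further genes CX-5461 raised expression and PMR-116 had no called effect. CSPG4, a proteoglycan found on KMT2A-rearranged leukaemia, had 159, 143 and 135 CPM with PMR-116 and 135, 155 and 131 CPM in its vehicle, against 269, 262 and 239 CPM with CX-5461 and 135, 142 and 150.0 CPM in its vehicle (difference -0.79 ± 0.15, adjusted p = 0.00239). Only the CX-5461 libraries stood apart. HK3, the hexokinase of myeloid cells, showed it at -1.14 ± 0.21, adjusted p = 0.00208. MIR223HG, the host transcript of a myeloid microRNA, did so at -0.78 ± 0.20, adjusted p = 0.018. Its call was lost without PMR-116 replicate 2, PMR-116 vehicle replicate 1 or CX-5461 vehicle replicate 2 (adjusted p 0.0516 to 0.0572 there, and 3.07e-08 to 0.0572 over the alternatives). ACSM3, CSPG4, HK3 and MIR223HG were singled out after their values were seen.

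The most negative differences by the naming rule fell into 2 kinds. In LIF, NECTIN4 and UNC13A, CX-5461 raised the gene further than PMR-116 did. UNC13A, known for priming synaptic vesicles, had 10.7, 9.44 and 7.08 CPM with PMR-116 and 1.20, 0.754 and 1.16 CPM in its vehicle, against 17.4, 20.6 and 17.9 CPM with CX-5461 and 0.709, 0.598 and 0.538 CPM in its vehicle (difference -1.81 ± 0.39, adjusted p = 0.00683). NECTIN4, an adhesion protein, had 2.84, 3.30 and 4.08 CPM with PMR-116 and 1.18, 1.90 and 1.28 CPM in its vehicle, against 10.5, 7.83 and 8.77 CPM with CX-5461 and 1.20, 1.26 and 1.13 CPM in its vehicle (difference -1.68 ± 0.35, adjusted p = 0.00485). In both, PMR-116 lay between the vehicles and CX-5461, but the naming rule required the effects of the 2 compounds not to overlap, so that separation is no result.

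In the other 9, PMR-116 lowered the gene and CX-5461 lowered it less or had no called effect. The netrin receptor UNC5A had 2.84, 2.41 and 2.01 CPM with PMR-116 and 7.28, 6.07 and 7.52 CPM in its vehicle, against 9.34, 7.33 and 7.82 CPM with CX-5461 and 7.43, 6.18 and 6.92 CPM in its vehicle (difference -1.78 ± 0.23, adjusted p = 8.67e-05). PLXNA1, a semaphorin receptor, had 17.9, 15.9 and 15.1 CPM with PMR-116 and 52.5, 49.9 and 48.4 CPM in its vehicle, against 43.1, 46.2 and 43.4 CPM with CX-5461 and 48.2, 54.9 and 46.4 CPM in its vehicle (difference -1.45 ± 0.20, adjusted p = 0.000123). The same held for GPSM1, a regulator of G-protein signalling (-1.40 ± 0.18, adjusted p = 5.93e-05), and for OSBPL3, a lipid transfer protein (-1.58 ± 0.33, adjusted p = 0.00486). RIBC2 (-1.39 ± 0.27, adjusted p = 0.00274) fell with both compounds, and SLC38A5, DHCR7 and UNG are described above. Vehicle groups of the 2 arms differed in mean for some of these low genes: OSBPL3 had 5.31 ± 1.04 CPM in the PMR-116 vehicle and 3.33 ± 0.256 CPM in the CX-5461 vehicle, LIF 1.44 ± 0.136 and 0.783 ± 0.274 CPM, and UNC13A 1.04 ± 0.247 and 0.615 ± 0.0866 CPM (SD, n = 3 each). Treated libraries compared directly, without vehicles, gave smaller differences of -0.91 for OSBPL3, -1.28 for LIF, -1.03 for UNC13A, -1.03 for RIBC2 and 0.87 for ARRDC3, all called.

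Several lists gave few or no calls, where 5.11% of all genes were called. The called share was 4.17% for interferon-stimulated genes, 5% for lysosome genes, 8.7% for NRF2 genes, 12.5% for topoisomerase genes and 15.4% for snoRNA hosts. None of 16 MHC class II genes was called (2 higher and 2 lower at unadjusted p under 0.05, and 0 by DESeq2). Interferon-stimulated genes rose widely with both compounds, 34 of 48 tested (50 listed) with PMR-116 and 31 with CX-5461, yet 1 was higher in the difference, HERC5, and 1 lower, IFITM2. The HERC5 call was lost without PMR-116 replicate 1, PMR-116 vehicle replicate 1, CX-5461 replicate 3 or CX-5461 vehicle replicates 2 or 3 (adjusted p 0.0514 to 0.0573 there, and 0.00358 to 0.0655 over the alternatives). That of IFITM2 was lost without any of 9 libraries, PMR-116 replicates 1, 2 or 3, PMR-116 vehicle replicates 1 or 2, CX-5461 replicates 1 or 3 or CX-5461 vehicle replicates 1 or 2 (adjusted p up to 0.167, and 0.00227 to 0.167 over the alternatives). Of 8 topoisomerase genes and their repair enzymes only TOP1 was called, higher with PMR-116 (0.32 ± 0.082, adjusted p = 0.0217). That call was lost without PMR-116 vehicle replicate 3 or CX-5461 replicates 2 or 3 (adjusted p 0.0507 to 0.053 there, and 0.00157 to 0.053 over the alternatives). TOP2A and TOP2B, the topoisomerase II genes, had uncalled differences of 0.068 ± 0.090, adjusted p = 0.774, and 0.16 ± 0.10, adjusted p = 0.417 (95% intervals -0.11 to 0.24 and -0.029 to 0.34). Of 40 tested lysosome and autophagy genes (41 listed) 2 were higher, DNASE2 and the protease CTSS (0.53), a count that was 1 to 4 with 1 library left out and 5 by DESeq2. The CTSS call was lost without any of 8 libraries, PMR-116 replicates 2 or 3, PMR-116 vehicle replicates 2 or 3, CX-5461 replicates 1 or 3 or CX-5461 vehicle replicates 1 or 3 (adjusted p up to 0.0955, and 0.000819 to 0.0955 over the alternatives). Of 23 NRF2 and iron storage genes 2 were lower, TFRC, which is also on the MYC list, and the peroxiredoxin PRDX1 (-0.33). The PRDX1 call was lost without any of 8 libraries, PMR-116 replicates 2 or 3, PMR-116 vehicle replicates 1 or 2, CX-5461 replicates 1 or 2 or CX-5461 vehicle replicates 1 or 3 (adjusted p up to 0.129, and 0.00022 to 0.129 over the alternatives). Of 26 snoRNA host genes 4 were lower, SNHG25, SNHG16, SNHG17 and SNHG12, at -1.71, -0.70, -0.57 and -0.73. The RN7SL2 difference of -4.17 ± 1.12, adjusted p = 0.0284, was -0.64 (adjusted p = 0.419) without PMR-116 vehicle replicate 3, and that of MALAT1 changed to -0.0033 (adjusted p = 0.998) in that setting, beside -2.77 ± 0.87, adjusted p = 0.0674, with all libraries.

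The same difference was formed from the 12 libraries of the 3 h time, which share none with those of 12 h, to see which differences were already present. At 3 h it was called for 275 genes (1.34%), 125 higher (0.61%) and 150 lower (0.732%), and 77 genes were called at both times with the same sign, while 3 were called with opposite signs. These 77 are 7.35% of the 12 h genes and 28% of the 3 h genes. Tested directly, the difference was higher at 12 h than at 3 h for 12 genes (0.0586%) and lower for 30 (0.146%), and the total of 42 was 23 to 67 with 1 library left out. The lists were also described at each time. The DNA replication list had a median difference of -0.038 at 3 h, and 6 of the 61 differed between the times by the test, all lower at 12 h. Of the G2/M genes 33 of 70 were already higher at 3 h, with a median of 0.41, against 7 at 12 h. The change between times was called for 4 of the 70, AURKA, INCENP, KIF20A and KIF23, all lower at 12 h. The p53 list had 10 lower members at 3 h, against 4 at 12 h; the change between times was called for 0 (12 higher and 0 lower at unadjusted p under 0.05, and 3 higher by DESeq2). Mitochondrial mRNAs had 6 of 13 lower at 3 h, with a median of -0.54, and 0 changed between the times by the test (1 lower at unadjusted p under 0.05, and 0 by DESeq2).

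Single genes showed how the times compared. The MCM6 difference was 0.0013 at 3 h and -0.89 at 12 h, and the change between times was -0.89 (adjusted p = 0.0114). For DNASE2 it was 0.17 at 3 h and 2.24 at 12 h (change 2.07, adjusted p = 0.0305). Both appeared between the times. CDKN1A ran the other way: its difference of -0.94 at 3 h was called (adjusted p = 0.000359) and that of -0.20 at 12 h was not, although the change of 0.74 between times was not called either (adjusted p = 0.0923). MDM2 differed by -0.93 at 3 h and -0.58 at 12 h, and PSRC1 by 1.33 and 0.69, in both cases with an uncalled change between times.

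**Figure D5:**
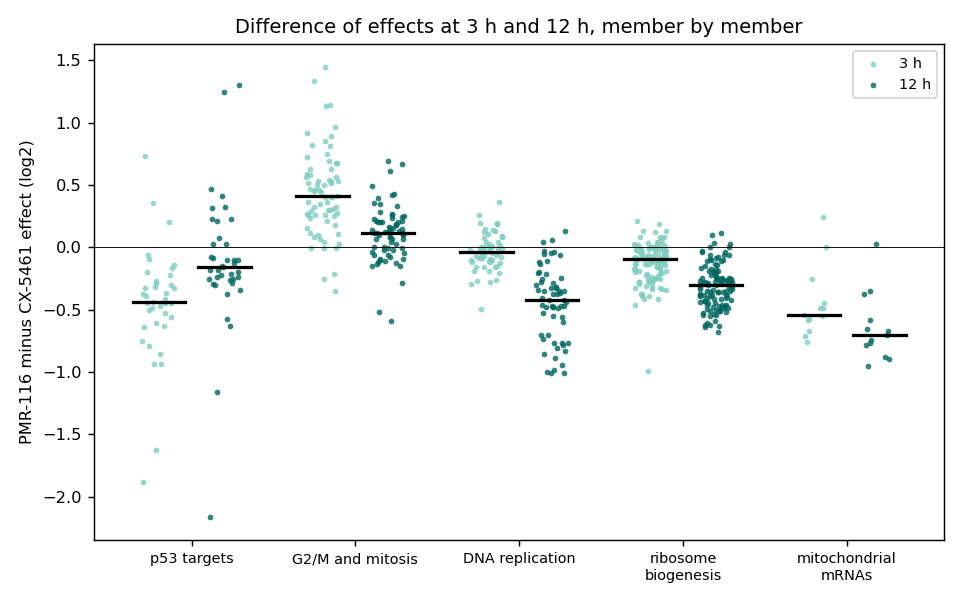
Difference of effects (PMR-116 minus CX-5461, log2) at 3 h and at 12 h for the members of 5 gene lists; each point is a gene and each black bar the median over the list. The replication genes move from a median of -0.038 at 3 h to -0.42 at 12 h, while p53 targets and G2/M genes have medians nearer to 0 at 12 h (-0.16 and 0.12) than at 3 h (-0.44 and 0.41).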

How the data were processed

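Bulk RNA was isolated with the Nucleospin kit and sequenced from Illumina Stranded mRNA Prep libraries, per the labels' protocols. The authors deposited estimated counts per gene symbol, 1 table for Mv4;11 with 59409 symbols, and of the values above 0, 99.98% were not whole numbers (within 1e-06). Per the submitters' processing notes, Salmon 1.5.2, DESeq2 and the build GRCh38.p13 were used; which step each served, and the gene annotation and strand option of the counting, are not given here. A further 24 columns of the table matched no sample and were left out, as was the KG-1 cell line.

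Rounding gave whole-number counts, which edgeR 4.0.16 (limma 3.58.1, R 4.3.3) tested. Genes passed filterByExpr (minimum count 10, minimum total 15), which left 20495, and library sizes were scaled by TMM. All 24 Mv4;11 libraries (8 groups at 3 h and 12 h, 3 each) were fitted together with glmQLFit and tested with glmQLFTest, so that the groups share 1 estimate of the spread; p-values were adjusted by Benjamini-Hochberg over all 20495 genes, and an adjusted p under 0.05 is called. The SE of a log2 value is its size divided by the square root of the test's F. CPM values use TMM-scaled totals, and per-library effects are log2(CPM + 0.5) of a treated library minus the mean of its vehicle group. The test was checked on simulated data with known changes. Every replicate pair differed by more than sampling noise (chi-square of 7.01 or more per degree of freedom).

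Of the genes named, 12 in each direction had the largest differences among protein-coding genes (by the RefSeq table) that were called, averaged 5 CPM or more in their highest group and did not overlap in per-library effects; up to 4 per list had the smallest p; others were always named or were chosen after their values were seen, as stated, and a few genes that the rule names are not reported here. Besides those the text marks, POLR2H, CD36, FOSL2, HPDL, SRC and the mitochondrial RNAs were chosen after their values were seen. The members and the 37 gene lists (1261 genes) were chosen with earlier results of these data known. Alternatives were DESeq2's size factors, library totals, DESeq2 1.42.0, no filter on low counts, the 12 h libraries alone, each library left out, a replicate block, and treated libraries compared without vehicles. RefSeq promoters (GRCh38.p14) were matched by symbol, and gene order on the mitochondrial DNA was taken from the RefSeq gene table.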

Additional observations from a re-analysis of the deposited data

Results flagged for a closer look

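The difference of effects was itself tested between the times, and it was higher at 12 h than at 3 h for 12 genes and lower for 30. Among the named genes, the change of the difference on the log2 scale was -1.71 for UNC5A, -1.51 for SLC38A5, -1.42 for PLXNA1, -1.17 for UNG, -1.1 for SNHG12, -0.89 for MCM6, -0.71 for UHRF1, -0.65 for PAICS, -0.63 for MCM2 and -0.51 for POLD2. It was 0.86 for FCGR2A, 1.12 for KLLN and 2.07 for DNASE2. Each of these had an adjusted p under 0.05 for the change (edgeR's quasi-likelihood test). The sets of libraries at the 2 times share no library.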

How the results depend on the processing

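The direction and side of the threshold held under every alternative for 94 of the 138 called genes among the 206 named. A change of sign was counted as reversed only where either value was called, and 1 named value reversed in this sense. The difference of MT-RNR1 (-0.59) was -1.02 to 1.06 with 1 library left out, 1.06 (adjusted p = 0.000103) coming without PMR-116 vehicle replicate 3. It was also positive, but uncalled, with the replicate block within compound and time (0.16) and in the direct comparison (1.15). The cause was not tested. The total of 1047 calls was 1581 with DESeq2 and 2757 with treated libraries compared directly. The higher calls (260) were 571 with library totals, 461 with DESeq2, 515 with no filter on low counts and 828 in the direct comparison, and the lower calls (787) were 1929 there. Differences of 2-fold or more (147) numbered 391 with no filter and 256 in the direct comparison, and the vehicles differed in 174 genes with no filter. With 1 library left out, the ranges were 724 to 1084 in all, 146 to 254 higher, 553 to 864 lower, 102 to 163 of 2-fold or more, 7879 to 8832 for PMR-116, 5294 to 6617 for CX-5461 and 0 to 17 for the vehicles. The change of the difference between times (42; 12 higher, 30 lower) numbered 226 (71 and 155) with DESeq2, 423 (170 and 253) with no filter, 25 higher with library totals, and 23 to 67 (6 to 23 higher and 16 to 47 lower) with 1 library left out; 23 came without PMR-116 vehicle 12 h replicate 1 and 67 without CX-5461 3 h replicate 2.

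Same-numbered libraries were weakly correlated, and the main test took no account of replicate number. Deviations of same-numbered treated and vehicle libraries correlated at 0.12, 0.0035 and 0.026 with PMR-116. With CX-5461 the values were 0.046, 0.080 and 0.062, and each treated library there correlated best with the vehicle of its own number. With PMR-116 this held for replicates 1 and 3, whereas replicate 2 correlated best with vehicle replicate 3 (0.069). Same-numbered treated libraries of the 2 compounds correlated at 0.10, 0.11 and -0.0062. A replicate block shared by all groups gave 1311 calls, with 86 for the change between times (29 and 57); a replicate block within compound and time gave 1583 (465 higher), with 171 for the change (54 and 117). The vehicles cannot be compared under the second block. Limits: each compound was given at 1 dose, groups hold 3 libraries, the ribosomal RNA precursor was not measured, values of near-identical gene copies are uncertain, and whether counting used strand is not known here.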
